A study of Homo sapiens with 9 samples.

Results

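The genes of the replicative DNA polymerases and of primase were examined in U2OS cells given hairpins against BAP1. They were POLA1, POLA2, PRIM1 and PRIM2 of the polymerase alpha-primase complex, POLD1, POLD2 and POLD3 of polymerase delta, and POLE, POLE2 and POLE3 of polymerase epsilon. Every probe set that the platform annotation assigned to 1 of these 10 symbols alone was taken, which gave 13 probe sets of the 54613 tested and 10 of the 19775 genes measured. POLA2 had 3 probe sets, POLD3 had 2 and the others had 1 each. A further 4 probe sets carry PRIM2 together with a PRIM2 pseudogene and were left out. Each gene is read from its brightest probe set, the one with the highest mean of the 9 arrays, and the other probe sets of POLA2 and POLD3 are given beside it. In the RefSeq annotation of build GRCh38.p14 the genes of polymerase alpha-primase lie apart, with POLA1 at chrX:24693918-24996986, POLA2 at chr11:65261962-65305985, PRIM1 at chr12:56731580-56752323 and PRIM2 at chr6:57221540-57646850. Those of polymerase delta have POLD1 at chr19:50384323-50418018, POLD2 at chr7:44114680-44124325 and POLD3 at chr11:74592582-74669341. Those of polymerase epsilon have POLE at chr12:132623762-132687342, POLE2 at chr14:49643555-49688214 and POLE3 at chr9:113407235-113410749.

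U2OS is a human osteosarcoma cell line. The 9 expression arrays fell into 3 groups of 3: cells carrying the hairpin shBAP1 #1, cells carrying the hairpin shBAP1 #2, and cells carrying the non-targeting hairpin shControl. BAP1, a tumour suppressor, removes ubiquitin from proteins in the nucleus, histone H2A among them. The hairpin plasmids were introduced by lipid transfection, every group was selected with puromycin, and every group was held at the start of S phase by a double thymidine block, per the labels' protocols. RNA was read from whole cultures, in which fewer cells expressing a gene cannot be told apart from less RNA per cell. Whether the replicates came from separate cultures is not given in the labels, so the p-values measure the spread between these arrays alone, and that spread may be technical. The BAP1 transcript was not analysed here, so the depletion rests on the labels and was not checked on these arrays.

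Copying of chromosomal DNA is shared between 3 related polymerases. Primase, made of the catalytic subunit PRIM1 and the large subunit PRIM2, lays down a short RNA primer, which the catalytic subunit POLA1 extends with DNA while POLA2 holds the complex together. Polymerase epsilon, with the catalytic subunit POLE and the accessory subunits POLE2, POLE3 and POLE4, travels with the helicase and extends the leading strand. Polymerase delta, with the catalytic subunit POLD1 and the accessory subunits POLD2, POLD3 and POLD4, extends the lagging strand and is clamped to DNA by PCNA. Many of these genes are known to be transcribed in late G1 and S phase under E2F factors.

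The stretches before the annotated start of 5 of these genes are shown, because E2F sites are known from genes of this class. For 4 of the 5 the choice followed the motif and not the expression change: they are the genes with an E2F match in a listed window. PRIM1, without a match, was picked for its strong fall. All 10 genes were lower with shBAP1 #2. Among the 4 chosen by the motif, POLA2 and POLE2 were lower with shBAP1 #1 too, and POLA1 and POLE were not called. Sequences are those of RefSeq for build GRCh38.p14, from 150 bases before the start to the first 10 bases after it, 5′ to 3′ on the strand of the gene. Capitals mark a match to any of TTTCCCGC, TTTCGCGC, TTTGCCGC and TTTGGCGC, spellings of the E2F consensus, on either strand.
POLA1 (chrX:24693768-24693927, plus strand): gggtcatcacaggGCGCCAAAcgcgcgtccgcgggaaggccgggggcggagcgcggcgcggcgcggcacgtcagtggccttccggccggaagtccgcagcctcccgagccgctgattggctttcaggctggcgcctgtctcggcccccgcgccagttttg
POLA2 (chr11:65261812-65261971, plus strand): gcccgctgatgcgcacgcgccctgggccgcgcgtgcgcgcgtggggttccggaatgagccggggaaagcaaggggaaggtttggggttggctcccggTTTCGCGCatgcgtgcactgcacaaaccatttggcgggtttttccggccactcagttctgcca
POLE (chr12:132687333-132687492, minus strand): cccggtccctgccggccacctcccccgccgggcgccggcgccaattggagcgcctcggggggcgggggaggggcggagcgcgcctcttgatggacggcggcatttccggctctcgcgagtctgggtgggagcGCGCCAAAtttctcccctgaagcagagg
POLE2 (chr14:49688205-49688364, minus strand): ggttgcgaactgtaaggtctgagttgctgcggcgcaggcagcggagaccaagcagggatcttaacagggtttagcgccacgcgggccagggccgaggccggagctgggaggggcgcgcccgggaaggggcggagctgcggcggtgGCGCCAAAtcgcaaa
PRIM1 (chr12:56752314-56752473, minus strand): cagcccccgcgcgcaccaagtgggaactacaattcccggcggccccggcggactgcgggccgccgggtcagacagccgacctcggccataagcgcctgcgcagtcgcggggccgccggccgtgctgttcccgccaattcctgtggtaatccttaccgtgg
PRIM1 is shown as a gene that fell strongly and has no such match. The listed windows of PRIM2, POLD1, POLD2 and POLE3 have none either and are not shown, although PRIM2, POLD1 and POLE3 were lower with both hairpins. No listed window of PRIM2 or POLD2 lies at the gene start given above. The stretch before that start was therefore not searched in PRIM2 and POLD2 for any motif. Windows of 300 bases, 250 before and 50 after a start, were listed for 9 of the 10 genes, POLD3 being the exception, and 3 genes had several windows. An E2F match stood in 4 of these 13 windows, those of POLA1, POLA2, POLE and POLE2, and in 3.31% of all 35116 windows of that length. Its first base lay 137, 53, 18 and 5 bases before the start in these 4 genes in that order. The CCAAT box (CCAAT on either strand) stood in 4 of the 13 windows against 34.6% of all windows, those of POLA1, PRIM1, POLD2 and POLE. The spelling AANATGGC of the site of YY1, a known partner of BAP1, stood in 2 of the 13 against 6.58% of all, in windows of PRIM2 and POLE2. The cell cycle element CHR (TTTGAA or TTCGAA) stood in 1 of the 13 against 16.4%, a window of POLE3. Matches of different motifs overlapped in 0 of the 13 windows, and the 2 CCAAT matches of POLE overlapped each other. A match is a stretch of letters and was not tested for binding.

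With shBAP1 #2, all 10 genes were lower than with shControl. With shBAP1 #1, 6 of the 10 were lower and the remaining 4 also had negative changes that did not pass the threshold (limma, Benjamini-Hochberg adjusted p below 0.05). The 6 lowered by both hairpins were POLA2, PRIM1 and PRIM2 of the primer-making complex, POLD1, the catalytic subunit of polymerase delta, and POLE2 and POLE3, accessory subunits of polymerase epsilon. Log2 changes lay between -1.33 and -0.06 with shBAP1 #1 and between -1.63 and -0.26 with shBAP1 #2, and 0 of the 10 were higher in either comparison. Among all 19775 genes read in the same way, 11.5% were lower and 11.9% higher with shBAP1 #1, 15.5% lower and 15.8% higher with shBAP1 #2, and 4.85% lower with both. The median change of the 10 genes was -0.50 with shBAP1 #1 and -0.62 with shBAP1 #2, beside medians of 0.01 and 0.02 over all genes. With replicate number as a block in a fit of the shBAP1 #1 and shControl arrays alone, 8 genes were lower with shBAP1 #1, the added ones being POLA1 and POLD3. That fit was chosen after seeing the data, with a pairing read from these same arrays, so it is no independent support. Its share of probe sets called is given below. Both comparisons use the same 3 shControl arrays. Taken as the mean of both hairpins, 8 of the 10 genes were lower, all but POLD2 and POLE, beside 13.5% of all genes.

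**Figure D1:**
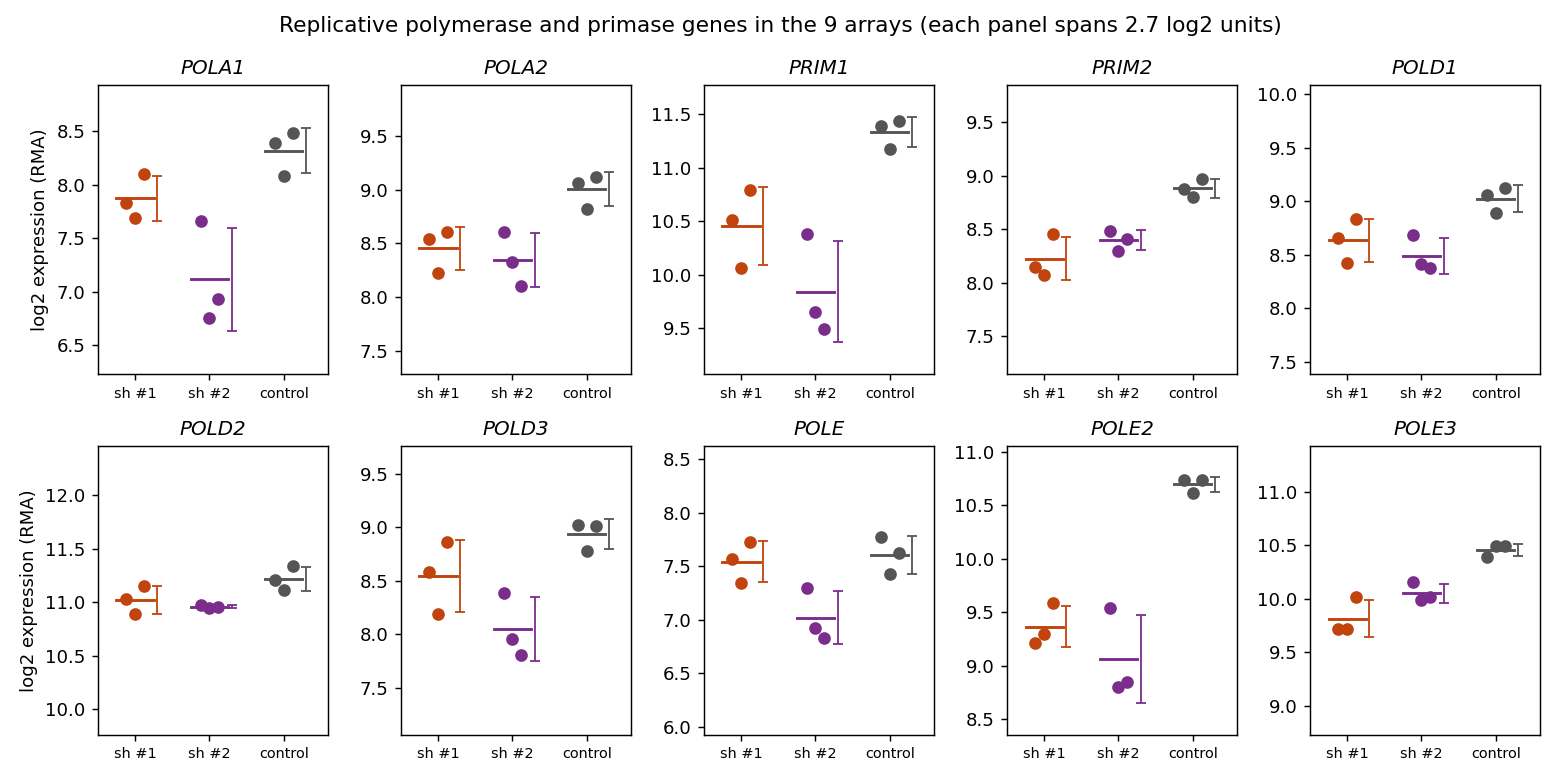
Log2 expression after robust multi-array averaging (RMA, vertical axis) of the 10 genes in cells with shBAP1 #1 (orange), shBAP1 #2 (purple) and shControl (grey). Points are arrays in replicate order, horizontal bars are means and error bars are SD over 3 arrays. For 6 genes all 6 shBAP1 arrays lie below all 3 shControl arrays, and in all 10 panels the 3 shBAP1 #2 arrays do.

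All 3 arrays of shBAP1 #2 lay below all 3 shControl arrays for 10 of the 10 genes, which held for 20.1% of all genes. For shBAP1 #1 this was so for 6 of the 10 genes, beside 18.7% of all genes. For the same 6 genes all 6 shBAP1 arrays lay below the controls, beside 9.02% of all genes. Counted over probe sets, 6 of the 13 were lower with shBAP1 #1 (8.76% of all 54613) and 10 with shBAP1 #2 (11.5%), and 3.49% of all probe sets were lower with both. With a change of at least 1.5-fold also required, 4 genes were lower with shBAP1 #1 (4.82% of all genes) and 6 with shBAP1 #2 (7.88%). Leaving out shControl replicate 1, shControl replicate 3 or shBAP1 #1 replicate 2 left 3 genes lower with shBAP1 #1 in each case, which were PRIM2, POLE2 and POLE3.

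Arrays of 1 group correlated across probe sets at 0.995 to 0.997, and arrays of different groups at 0.976 to 0.990. The actin control probe sets, whose 3′ minus 5′ difference reflects RNA integrity, gave 0.39 to 0.41 log2 units with shBAP1 #1 and 0.39 to 0.46 with shBAP1 #2, against 0.47 to 0.51 with shControl. The actin difference separated the groups as the 6 shared calls do, and its part in them was not tested. The same difference for GAPDH did not separate them, at -0.05 to -0.03 in all 6 shBAP1 arrays and -0.06 to -0.02 with shControl. Markers of the mesenchymal lineage of this line, vimentin (VIM), the collagen gene COL1A1 and SPARC, had means above those of 98% of probe sets, whereas COL1A2 and the osteoblast genes ALPL and SP7 were dimmer than the median probe set (5.43). Of the 7 lineage markers listed, 3 were higher with shBAP1 #1 (COL1A1 by 0.99, SPARC by 0.35 and RUNX2 by 1.20), 1 was higher with shBAP1 #2 (ALPL by 1.18) and 0 were lower with either. Among all genes 11.9% were higher with shBAP1 #1 and 15.8% with shBAP1 #2, and the shBAP1 #2 count was near its share. Of 6 markers of other cell types, 4 lay below the median probe set (CDH1, PTPRC, CD3E and ALB), and the epithelial EPCAM and the endothelial PECAM1 lay above it and were lower with both hairpins (-0.54 and -0.64 for EPCAM, -0.83 and -0.73 for PECAM1, with shBAP1 #1 and shBAP1 #2). Lower with both hairpins were 4.85% of all genes. The part of these markers' cell types in the results was not tested.

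POLE2, the accessory subunit that ties the catalytic part of polymerase epsilon to the helicase, had the largest fall of the 10 genes with both hairpins. Its log2 levels were 9.22, 9.30 and 9.58 with shBAP1 #1, 9.54, 8.80 and 8.85 with shBAP1 #2, and 10.73, 10.61 and 10.73 with shControl. The lowest control stood more than 1 log2 unit above the highest shBAP1 array. POLE2 changed by -1.33 ± 0.17 with shBAP1 #1 and by -1.63 ± 0.17 with shBAP1 #2 (SE of the fit, n = 3; limma adjusted p = 0.00041 and 9.3e-05), which leaves 39.9% and 32.3% of the control level. By the smaller of its changes POLE2 was at place 23 of 19775 genes, counted from the most lowered. Both calls held in all 9 fits that left out an array.

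POLE, the catalytic subunit of the same enzyme, behaved differently with shBAP1 #1. Its levels were 7.57, 7.34 and 7.72 with shBAP1 #1, 7.30, 6.93 and 6.83 with shBAP1 #2, and 7.77, 7.42 and 7.62 with shControl. The shBAP1 #1 arrays overlapped the controls, and the shBAP1 #2 arrays lay below both other groups. The change was -0.06 ± 0.14 with shBAP1 #1 (adjusted p = 0.854, 95% interval -0.38 to 0.25) and -0.59 ± 0.14 with shBAP1 #2 (adjusted p = 0.0106). The second call was lost without shControl replicate 1 (-0.51, adjusted p = 0.0515), and the first change turned its sign without that array (0.02) or without shBAP1 #1 replicate 2 (0.04). The probe set of POLE carries a suffix for probes shared between transcripts.

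POLE3 encodes a small histone-fold protein that pairs with POLE4 in polymerase epsilon and with CHRAC1 in a chromatin remodelling complex. Its levels were 9.72, 9.71 and 10.01 with shBAP1 #1, 10.15, 9.99 and 10.02 with shBAP1 #2, and 10.39, 10.49 and 10.49 with shControl. All 6 shBAP1 arrays were below the controls, and 2 of the 3 shBAP1 #1 arrays were the lowest of all. The change was -0.64 ± 0.09 with shBAP1 #1 and -0.41 ± 0.09 with shBAP1 #2 (adjusted p = 0.00068 and 0.0079), and both calls held in all 9 fits that left out an array. CHRAC1 was lower with shBAP1 #1, a gene singled out after its values were seen (-0.99, adjusted p = 6.4e-05) and near its control level with shBAP1 #2 (0.00, adjusted p = 0.998). POLE4 had changes of 0.21 and 0.00 (adjusted p = 0.121 and 0.987), and the dimmest of its 3 probe sets, far below the median of all probe sets, was lower with both hairpins (-0.26 and -0.31, adjusted p = 0.0265 and 0.0086).

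The probe sets of the polymerase epsilon subunits changed by unequal amounts within the same arrays. Relative to the control mean, POLE2 stood below POLE by 1.13 to 1.44 log2 units in shBAP1 #1 arrays and by 0.84 to 1.21 in shBAP1 #2 arrays, where the difference ran from -0.13 to 0.10 in shControl. POLE3 minus POLE was -0.70 to -0.48 with shBAP1 #1 and 0.00 to 0.34 with shBAP1 #2, against -0.23 to 0.21 with shControl. POLE2 was therefore apart from POLE with each hairpin and POLE3 with shBAP1 #1, whereas with shBAP1 #2 the values of POLE3 minus POLE overlapped the controls. These are differences between changes of separate probe sets and were not put to a test.

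PRIM1, the subunit of primase that joins the first ribonucleotides, had the second largest fall. Its levels were 10.51, 10.06 and 10.79 with shBAP1 #1, 10.38, 9.65 and 9.50 with shBAP1 #2, and 11.39, 11.17 and 11.44 with shControl. All shBAP1 arrays were below the controls, and the hairpins overlapped each other. The change was -0.88 ± 0.23 with shBAP1 #1 and -1.49 ± 0.23 with shBAP1 #2 (adjusted p = 0.0209 and 0.00076), leaving 54.4% and 35.6% of the control level. The shBAP1 #1 call did not hold in 4 of the 9 fits with an array left out, namely without shControl replicate 1 (-0.85, adjusted p = 0.0740), without shControl replicate 3 (-0.83, 0.0727), without shBAP1 #1 replicate 1 (-0.91, 0.0540) and without shBAP1 #1 replicate 2 (-0.68, 0.0838).

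PRIM2, which regulates primase and hands the primer on, fell less and in a narrower range. Its levels were 8.15, 8.07 and 8.45 with shBAP1 #1, 8.49, 8.30 and 8.41 with shBAP1 #2, and 8.88, 8.80 and 8.97 with shControl. All 6 shBAP1 arrays were below the controls. The change was -0.66 ± 0.10 with shBAP1 #1 and -0.48 ± 0.10 with shBAP1 #2 (adjusted p = 0.0012 and 0.0055), and both calls held in all 9 fits that left out an array. PRIM1 minus PRIM2, relative to the control mean, was -0.46 to -0.09 with shBAP1 #1 and -1.37 to -0.56 with shBAP1 #2, against -0.08 to 0.06 with shControl. The partners of primase thus stood furthest apart with shBAP1 #2, in all 3 of its arrays.

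POLA1, which extends the RNA primer with DNA, was clearly lower with shBAP1 #2. Its levels were 7.83, 7.69 and 8.10 with shBAP1 #1, 7.66, 6.76 and 6.93 with shBAP1 #2, and 8.39, 8.09 and 8.48 with shControl. The shBAP1 #2 arrays lay below both other groups, and shBAP1 #1 replicate 3 lay just above the lowest control. The change was -1.20 ± 0.21 with shBAP1 #2 (adjusted p = 0.0017) and -0.45 ± 0.21 with shBAP1 #1 (adjusted p = 0.205, 95% interval -0.91 to 0.02). With the replicate block in a fit of shBAP1 #1 and shControl alone, chosen after seeing the data, the shBAP1 #1 change passed the threshold (-0.45, adjusted p = 0.0062). Without shBAP1 #2 replicate 1, whose spread enters the shared error, the shBAP1 #1 change had an adjusted p = 0.0393.

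POLA2, the accessory subunit of polymerase alpha, fell by similar amounts with both hairpins on its brightest probe set. The levels there were 8.54, 8.23 and 8.60 with shBAP1 #1, 8.61, 8.33 and 8.11 with shBAP1 #2, and 9.07, 8.83 and 9.12 with shControl. All 6 shBAP1 arrays were below the controls. The change was -0.55 ± 0.14 and -0.66 ± 0.14 with shBAP1 #1 and shBAP1 #2 (adjusted p = 0.0203 and 0.0058). Its other probe sets, close to the median of all probe sets, had changes of -0.17 and 0.05 with shBAP1 #1 and -0.35 and -0.22 with shBAP1 #2, none past the threshold (adjusted p between 0.0577 and 0.792). The brightest probe set carries the suffix for shared probes, so on probe sets without it POLA2 was called with neither hairpin. The shBAP1 #1 call was also lost without shControl replicate 1 (-0.52, adjusted p = 0.0774), shControl replicate 3 (-0.49, 0.0774) or shBAP1 #1 replicate 2 (-0.43, 0.0823).

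The 3 genes of polymerase delta had the smallest mean shift of the enzymes in each of the 6 shBAP1 arrays, a difference that was not tested. By the median over genes, polymerase epsilon shifted less than polymerase delta in shBAP1 #2 replicate 1 (-0.31 against -0.34). POLD1, its catalytic and proofreading subunit, had levels of 8.65, 8.43 and 8.83 with shBAP1 #1, 8.68, 8.41 and 8.38 with shBAP1 #2, and 9.06, 8.89 and 9.13 with shControl. All 6 shBAP1 arrays were below the controls by a small margin. The change was -0.39 ± 0.12 and -0.53 ± 0.12 (adjusted p = 0.0454 and 0.0069). The shBAP1 #1 call did not hold in 6 of the 9 fits with an array left out, with an adjusted p = 0.166 at -0.28 without shBAP1 #1 replicate 2, 0.148 without shControl replicate 3, 0.134 without shControl replicate 1, 0.104 without shBAP1 #1 replicate 1, and 0.0612 and 0.0551 without shBAP1 #2 replicates 2 and 3. It was lost too when shBAP1 #1 and shControl were fitted alone (adjusted p = 0.0537).

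POLD3, which helps hold the enzyme on PCNA, had levels of 8.59, 8.19 and 8.86 with shBAP1 #1, 8.39, 7.96 and 7.80 with shBAP1 #2, and 9.02, 8.77 and 9.02 with shControl. The shBAP1 #2 arrays were below all controls, and shBAP1 #1 replicate 3 lay among them. The change was -0.89 ± 0.18 with shBAP1 #2 (adjusted p = 0.0042) and -0.39 ± 0.18 with shBAP1 #1 (adjusted p = 0.193). With the replicate block in a fit of shBAP1 #1 and shControl alone, chosen after seeing the data, the shBAP1 #1 change passed the threshold (-0.39, adjusted p = 0.0308). A dimmer probe set gave -0.18 and -0.10 in the same order, with neither past the threshold (adjusted p = 0.188 and 0.550).

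POLD2, the subunit that links POLD1 to the accessory subunits, was the most even of the 10 genes. Its levels were 11.03, 10.89 and 11.15 with shBAP1 #1, 10.98, 10.95 and 10.95 with shBAP1 #2, and 11.21, 11.11 and 11.34 with shControl. The shBAP1 #2 arrays had an SD of 0.02 and lay below all controls. The change was -0.26 ± 0.08 with shBAP1 #2 (adjusted p = 0.0462) and -0.20 ± 0.08 with shBAP1 #1 (adjusted p = 0.158). The shBAP1 #2 call did not hold in 6 of the 9 fits with an array left out, with an adjusted p = 0.105 without shControl replicate 1, 0.152 without shControl replicate 3, 0.0638 without shBAP1 #1 replicate 1, and 0.0728, 0.116 and 0.111 without shBAP1 #2 replicates 1, 2 and 3. POLD4, the smallest subunit of the enzyme, was lower with shBAP1 #1 (-0.30, adjusted p = 0.0141) and changed by -0.06 with shBAP1 #2 (adjusted p = 0.629).

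**Figure D2:**
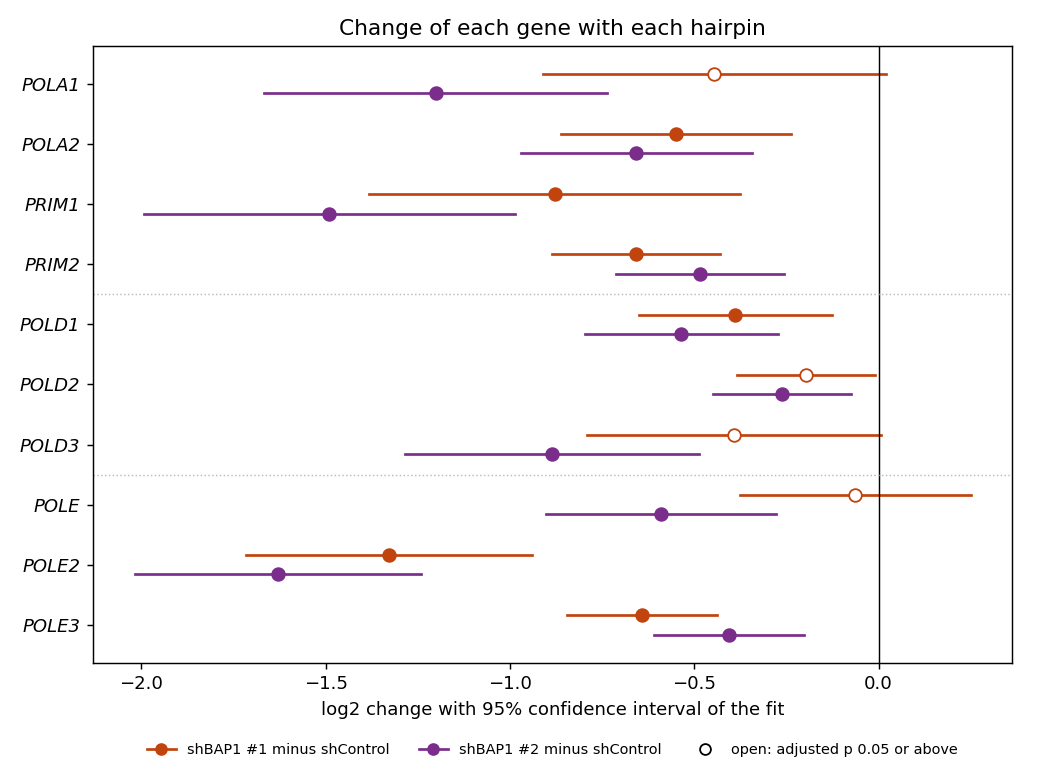
Log2 change (horizontal axis) of each gene with shBAP1 #1 (orange) and shBAP1 #2 (purple) against shControl, with 95% confidence intervals of the limma fit over 9 arrays. Open points did not pass an adjusted p of 0.05. All 20 changes lie below 0, and POLE2 and PRIM1 lie furthest to the left for shBAP1 #2.

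Compared directly, shBAP1 #2 gave lower levels than shBAP1 #1 for POLA1 and POLE, beside 16.5% of all genes and 12.5% of all probe sets lower in that comparison. The count of 2 in 10 genes is near that share of all genes. A further 3180 of the 19775 genes were higher with shBAP1 #2 than with shBAP1 #1, and 0 of the 10. POLA1 differed by -0.76 ± 0.21 (adjusted p = 0.0214) and POLE by -0.53 ± 0.14 (adjusted p = 0.0179). Both differences did not hold in the same 4 of the 9 fits with an array left out, namely without shBAP1 #1 replicate 1, where adjusted p was 0.0524 for POLA1 and 0.0554 for POLE, without shBAP1 #1 replicate 3 (0.0759 and 0.0665), without shBAP1 #2 replicate 2 (0.0906 and 0.0699) and without shBAP1 #2 replicate 3 (0.0868 and 0.0786). In all, 8 of the 10 genes had a lower mean with shBAP1 #2 than with shBAP1 #1. PRIM2 (0.17 ± 0.10, adjusted p = 0.279) and POLE3 (0.24 ± 0.09, adjusted p = 0.0911) had the opposite sign. For POLE2 the difference was -0.30 ± 0.17 (adjusted p = 0.268, 95% interval -0.69 to 0.09), and for PRIM1 -0.61 ± 0.23 (adjusted p = 0.0776). The probe sets of POLA2 were split. Its brightest was not called (-0.11, adjusted p = 0.665), nor was the next (-0.18, adjusted p = 0.384), but its dimmest was lower with shBAP1 #2 (-0.27, adjusted p = 0.0238). The dimmer probe set of POLD3 was not called (-0.08, adjusted p = 0.607). Without shBAP1 #2 replicate 1, PRIM1 (-0.88, adjusted p = 0.0054), POLD3 (-0.66, 0.0179) and POLE2 (-0.54, 0.0043) were also lower with shBAP1 #2 than with shBAP1 #1, and 5 genes were called. Without shBAP1 #1 replicate 3, PRIM2 (0.29, 0.0393) and POLE3 (0.34, 0.0125) were higher with shBAP1 #2. Without shBAP1 #1 replicate 2, PRIM1 (-0.81, 0.0307) and POLD3 (-0.67, 0.0166) joined the genes lower with shBAP1 #2.

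The 10 genes shared much of their array order within the groups. Replicate 3 was the highest shBAP1 #1 array for 10 of the 10 genes, replicate 1 the highest shBAP1 #2 array for 10, replicate 2 the lowest shBAP1 #1 array for 9, and replicate 2 the lowest shControl array for 9. The lowest shBAP1 #2 array was replicate 2 for some genes and replicate 3 for others. The share of all genes with these array orders was not counted. Of each hairpin's arrays, the highest for the 10 genes also correlated best with the controls over all probe sets. Its mean correlation was 0.990 for shBAP1 #1 and 0.989 for shBAP1 #2. Averaged over the 10 genes, replicates 1, 2 and 3 stood at -0.57, -0.76 and -0.34 with shBAP1 #1, -0.53, -0.94 and -0.97 with shBAP1 #2, and 0.04, -0.13 and 0.09 with shControl, so replicate 2 was lowest and replicate 3 highest in both shBAP1 #1 and shControl. Averaged over the 4 genes of polymerase alpha-primase, arrays stood at -0.63, -0.87 and -0.40 with shBAP1 #1, at -0.60, -1.13 and -1.15 with shBAP1 #2, and at 0.05, -0.16 and 0.12 with shControl, relative to the control mean. The 3 genes of polymerase epsilon gave -0.75, -0.80 and -0.48 with shBAP1 #1, -0.59, -1.01 and -1.02 with shBAP1 #2, and 0.05, -0.08 and 0.03 with shControl. Both complexes were thus below all controls in every shBAP1 array. The 3 genes of polymerase delta gave -0.30, -0.56 and -0.11 with shBAP1 #1, -0.38, -0.62 and -0.68 with shBAP1 #2, and 0.04, -0.14 and 0.10 with shControl, so that shBAP1 #1 replicate 3 lay within the control range.

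**Figure D3:**
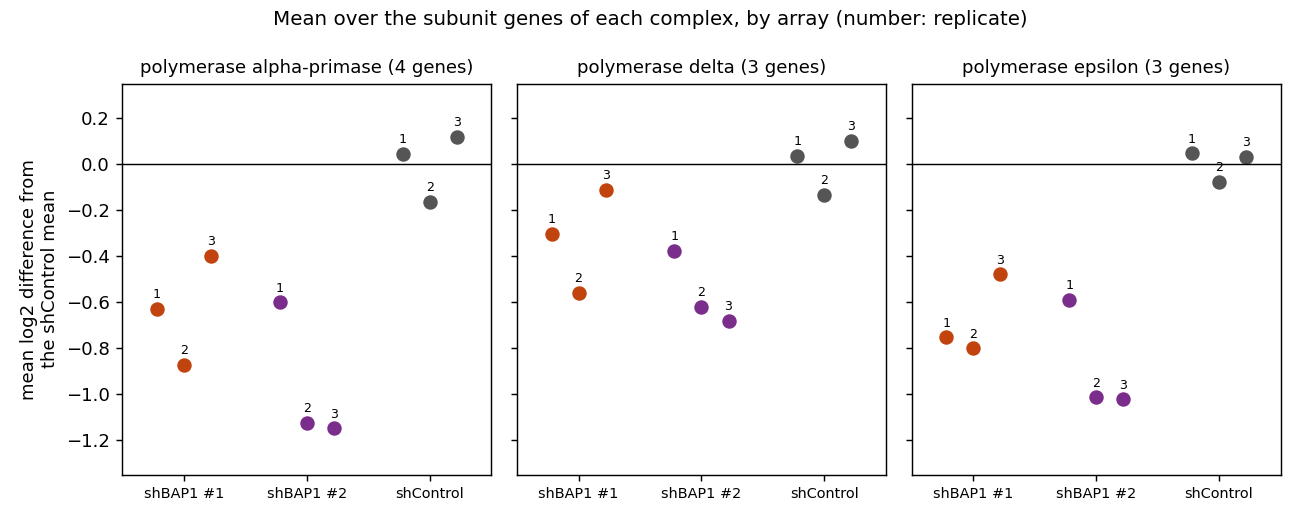
Mean log2 difference from the shControl mean (vertical axis) over the subunit genes of each polymerase, for each array of shBAP1 #1, shBAP1 #2 and shControl, with replicate numbers above the points. Polymerase delta shows the smallest mean shift, and in each panel replicate 3 is the shBAP1 #1 array nearest to the controls and replicate 1 the shBAP1 #2 array nearest to them.

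Within each hairpin, the same array stood nearest to the controls for other genes of the cell cycle. Over 15 other E2F target genes of the G1/S transition, the mean difference was -0.66, -0.94 and -0.40 with shBAP1 #1, -0.81, -1.33 and -1.36 with shBAP1 #2, and 0.05, -0.14 and 0.09 with shControl. Over 13 genes of G2 and mitosis it was -0.25, -0.47 and -0.18 with shBAP1 #1, -0.55, -1.39 and -1.30 with shBAP1 #2, and 0.00, -0.07 and 0.07 with shControl. Of these 13 genes, 3 were lower and 1 higher with shBAP1 #1 and 11 were lower with shBAP1 #2. Among all genes, 11.5% were lower and 11.9% higher with shBAP1 #1, and 15.5% were lower with shBAP1 #2. Lower with both hairpins were, among others, BIRC5 (-1.29 and -1.08) and the mitotic kinase gene CDK1 (-0.71 and -1.31). The 13 genes mark the phases that thymidine-arrested cells have not yet reached. They shared with the polymerase genes the array nearest to the controls within each hairpin, but not the size of the difference between hairpins. With shBAP1 #2 against shBAP1 #1, 10 of the 13 were lower (median -0.96), against 2 of the 10 polymerase genes (median -0.22) and 16.5% of all genes. BIRC5 had the opposite sign there (0.21, limma adjusted p = 0.413). The part of cell cycle position in the polymerase changes was not tested.

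Among partners of the polymerases at the fork, counts are set beside the 11.5%, 15.5% and 4.85% of all genes that were lower with shBAP1 #1, with shBAP1 #2 and with both. Of 16 genes of the replicative helicase and fork scaffold, 9 were lower with shBAP1 #1, 16 with shBAP1 #2 and 9 with both, with median changes of -0.68 and -1.26. WDHD1, which couples polymerase alpha to the helicase, changed by -1.41 and -1.92 with shBAP1 #1 and shBAP1 #2, and GINS4, a helicase subunit, by -1.38 and -2.22 (adjusted p at most 0.0061). Of 16 genes of the sliding clamp, its loader and the maturation of Okazaki fragments, 9 were lower and 2 higher with shBAP1 #1, 13 were lower with shBAP1 #2 and 8 were lower with both. RNASEH2A, which removes RNA from DNA, changed by -0.91 and -1.15, and the clamp loader gene RFC4 by -0.90 and -0.98. The 2 that were higher with shBAP1 #1, singled out after their values were seen, were the clamp loader gene RFC5 (0.27) and LIG1, the ligase that seals Okazaki fragments (0.44), and LIG1 was lower with shBAP1 #2 (-0.39). Of 15 other G1/S E2F targets, 10 were lower with shBAP1 #1, 15 with shBAP1 #2 and 10 with both, among them the cyclin gene CCNE2 (-2.46 and -2.51) and the licensing factor gene CDC6 (-1.10 and -1.65). The medians were -0.41 and -0.60 for the clamp list and -0.61 and -0.97 for the E2F list.

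Other DNA polymerases and ligases were counted in shorter lists, so their counts stand beside the shares of all genes. Of all genes, 11.5% were lower with shBAP1 #1, 15.5% with shBAP1 #2 and 4.85% with both. The shares that were higher were 11.9% with shBAP1 #1 and 15.8% with shBAP1 #2. Of 9 translesion and repriming polymerase genes, 1 was lower with shBAP1 #1, 4 with shBAP1 #2 and 1 with both, with medians of -0.17 and -0.38. The shBAP1 #1 count was near the share of all genes. The member lowered by both was PRIMPOL, which restarts synthesis beyond a block (-0.61 and -1.21, adjusted p = 0.0105 and 0.00014). Of 6 genes of repair and end-joining polymerases and ligases, 0 were called by limma with shBAP1 #1 (1 at an unadjusted p below 0.05) and 1 was higher with shBAP1 #2, the ligase gene LIG4 (0.96), with medians of 0.07 and -0.04. Of 5 genes of mitochondrial DNA replication, 1 was higher with shBAP1 #1 (POLG) and 3 with shBAP1 #2 (POLG2, SSBP1 and POLRMT), with medians of -0.07 and 0.33. LIG4 and the mitochondrial genes were named after their values were seen. POLQ, which also acts in end joining, was counted in the translesion list and is given below, so the repair and end-joining list leaves it out. The difference between these lists and the replicative genes was not put to a test.

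**Figure D4:**
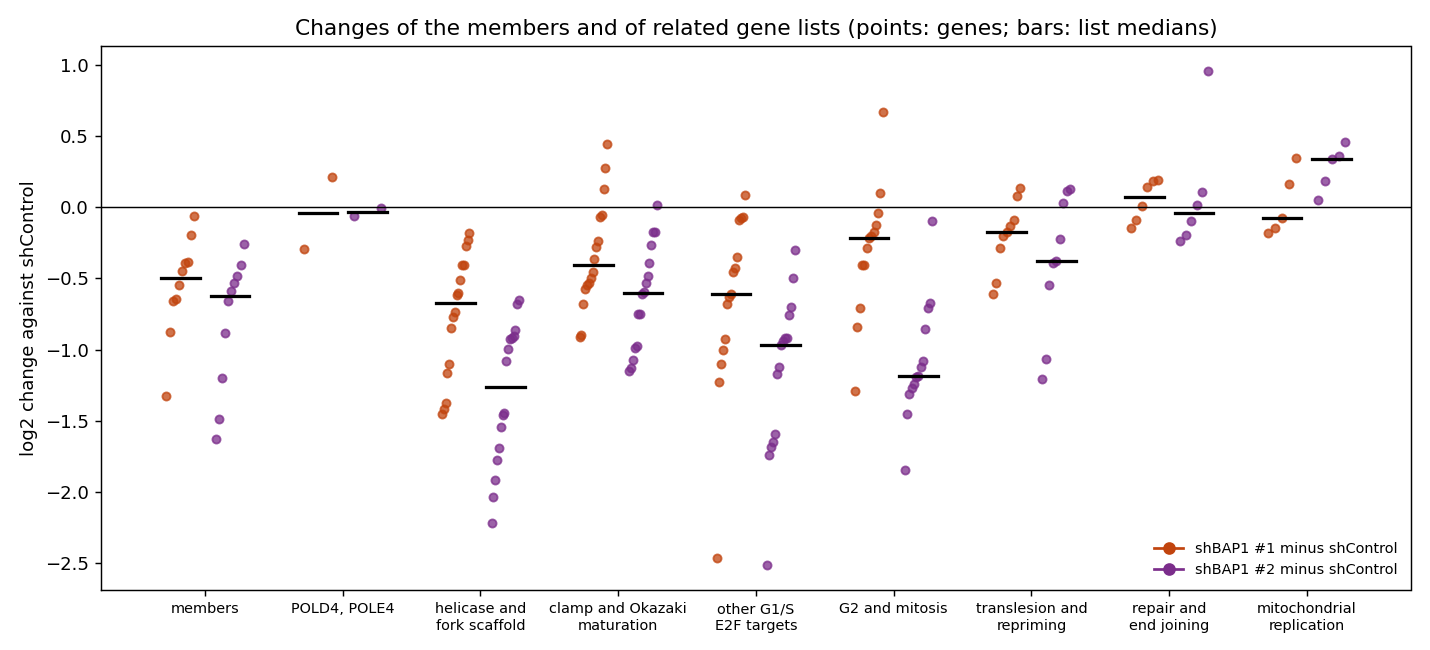
Log2 change against shControl (vertical axis) of the 10 genes and of related gene lists with shBAP1 #1 (orange) and shBAP1 #2 (purple). Points are genes and black bars are list medians. Medians of the replicative lists lie below 0 with both hairpins, and those of repair and mitochondrial replication lie between -0.07 and 0.33.

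Across the 9 arrays, the genes most like each of the 6 commonly lowered members were sought among 12751 genes at or above the median level, by the root mean square difference of profiles after each gene's own mean was subtracted. UXS1 was closest to POLE2 (0.07 log2 units), with changes of -1.30 and -1.62 with shBAP1 #1 and shBAP1 #2, followed by EMC4 (0.12). SAC3D1 (0.08) and the replication initiation gene MCM10 (0.09) were closest to PRIM1. INTS7 and the fork protection gene DONSON (0.06 and 0.07) were closest to POLA2, IRX3 and FOXJ2 (0.05 and 0.06) to PRIM2, UBR7 and CASP2 (0.04 and 0.05) to POLD1, and the origin recognition gene ORC5 and IRX3 (0.06 each) to POLE3. The SD of the members' own profiles over arrays was 0.28 for POLD1 to 0.79 for POLE2, and small distances are reached more easily by genes that vary little.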

How the data were processed

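Expression was measured on 9 Affymetrix arrays, 3 for each of shBAP1 #1, shBAP1 #2 and shControl. The deposited values are log2 intensities that the authors summarised per probe set by RMA, per the submitters' processing notes, and software versions are not given in the sources used here. RMA normalises all arrays to a common distribution, so a change shared by all transcripts would not be seen, and small changes of dim probe sets are compressed. No pseudocount was added.

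The 62 control probe sets of the 54675 were left out. In the platform annotation 41091 probe sets had 1 symbol, 1801 several and 11721 none, and all 10 symbols matched the gene table of GRCh38.p14. The 54613 remaining probe sets were fitted by lmFit and eBayes of limma (version 3.58.1, under R version 4.3.3; 9 arrays, 3 groups, residual df 6, two-sided), with Benjamini-Hochberg adjustment over all of them and calls at an adjusted p below 0.05. The number of arrays limits the precision, and counting depth does not apply. The scripts were tested on simulated data.

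The 10 genes and the related lists were chosen with earlier results of these data known. Named were all 10 genes, POLD4 and POLE4, up to 2 genes per direction and list among those called the same way by both hairpins, and the 2 genes with the most similar profile for each member called by both. Genes named outside this rule, lineage markers among them, were chosen after their values were seen. Alternatives covered normalisation, dim probe sets, the choice and averaging of probe sets, the arrays fitted, the variance model, a replicate block, a fold threshold and each array left out. Deviations of same-numbered shBAP1 #1 and shControl arrays from their group means correlated at 0.127 to 0.302 in all 3 pairs, each over 0.1. The 6 differently numbered pairs gave -0.280 to 0.148, so the 2 ranges overlapped. The numbers were nevertheless taken to pair those arrays, a reading from the data and not from the labels. A blocked fit of these 6 arrays was added after seeing the data. For shBAP1 #2 the correlations were -0.070 to 0.111 with shControl and -0.173 to 0.033 with shBAP1 #1, so those numbers were not taken to pair arrays. No 2 arrays held identical values.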

Additional observations from a re-analysis of the deposited data

Results flagged for a closer look

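POLA1 and POLE responded differently to the 2 hairpins, by a test of the difference itself. For POLA1, shBAP1 #2 minus shBAP1 #1 was -0.76 on the log2 scale (limma adjusted p = 0.0214). For POLE it was -0.53 (limma adjusted p = 0.0179). These are 2 of the 10 genes, a count near the 16.5% of all genes that were lower in this comparison. A further 3180 of the 19775 genes were higher in it, and 0 of the 10. The count therefore does not set the 10 genes apart from other genes. Both differences did not hold in 4 of the 9 fits with an array left out.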

How the results depend on the processing

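Of 800 gene values recomputed under 21 alternatives, 726 kept their direction and their side of the threshold, 45 lost the call, 26 gained one and 3 changed sign. The sign changes were of values that had not been called. POLE with shBAP1 #1 ran from -0.15 to 0.04 (0.0386) over the fits without 1 array, at 0.02 without shControl replicate 1, and POLA2 for shBAP1 #2 minus shBAP1 #1 from -0.24 to 0.01 (0.0128). Over those 9 fits the lowered genes numbered 3 to 7 with shBAP1 #1, 8 to 10 with shBAP1 #2, 7 to 9 for the mean of both and 3 to 7 for both hairpins alike, and 0 to 5 genes differed between hairpins. None differed (0) without shBAP1 #1 replicate 1, shBAP1 #2 replicate 2 or shBAP1 #2 replicate 3. With a 1.5-fold change also required, 6 genes were lower with shBAP1 #2, 5 for the mean of both and 2 with both, and 1 differed between hairpins. Array quality weights gave 4 differing genes. The replicate block over all 9 arrays also gave 4, adding PRIM1 (limma adjusted p = 0.0458) and POLD3 (0.0426), and left 6 and 10 genes lower with shBAP1 #1 and shBAP1 #2. The replicate block fitted to shBAP1 #1 and shControl alone, chosen after seeing the data, gave 8 genes lower with shBAP1 #1, adding POLA1 and POLD3, with 19.9% of probe sets called. The block changed no other call against shControl, apart from POLD2 and POLE gaining one for the mean of both (10 genes). Over the whole table, probe sets called made up 34.9%, 44.8%, 46.6% and 38.7% when dim ones were left out, and 7.19%, 10.1%, 11.5% and 5.78% with the 1.5-fold rule, for shBAP1 #1, shBAP1 #2, the hairpins set against each other, and their mean over shControl, where no added rule gave 17.7%, 24.1%, 25.5% and 19.9%. The first follows from testing fewer, brighter probe sets and the second from the added threshold. The cause of the other shifts was not tested.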

Other observations

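Values not described above concern partners of the polymerases. Of 2 measured genes for proteins that bind polymerase delta, both were higher with shBAP1 #1, KCTD13 by 1.07 and POLDIP3 by 0.41 (limma adjusted p = 5.6e-05 and 0.0093), and neither passed the threshold with shBAP1 #2 (0.24 and -0.24, adjusted p = 0.120 and 0.0852). STN1, of the complex that brings polymerase alpha-primase to telomeres, was lower with shBAP1 #2 (-1.37, limma adjusted p = 0.00053) and changed by 0.16 with shBAP1 #1 (adjusted p = 0.701). POLQ, an end-joining polymerase counted here in the translesion list, changed by -1.07 with shBAP1 #2 (limma adjusted p = 0.0011) and by -0.53 with shBAP1 #1 (adjusted p = 0.0608). These genes were singled out after their values were seen.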
